A study of Rattus norvegicus with 12 samples.

Results

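Levels of 7 iron handling transcripts were followed through the hearts of lean, obese and nicotinamide-treated obese ZSF1 rats: the ferritin light and heavy chains Ftl1 and Fth1, the transferrin receptor Tfrc, the iron exporter ferroportin (Slc40a1), heme oxygenase 1 (Hmox1), and the iron regulatory proteins Aco1 and Ireb2. They were chosen by name, as the rows of the deposited table that carry these symbols. The 7 genes were found once each among the 17602 genes listed. All 7 were among the 10526 genes that reached 1 TPM (transcript share, corrected for length and scaled to the same total in each sample) in at least 4 of the 12 samples and were tested.

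The study asks what raising cardiac NAD+, a cofactor made from nicotinamide (NAM), does in a rat model of heart failure with preserved ejection fraction. RNA from cardiac muscle was sequenced from 4 lean ZSF1 controls, 4 obese ZSF1 rats, and 4 obese ZSF1 rats that drank water with NAM at 24 mM between weeks 8 and 20 of age. All 12 samples are of the ZSF1 strain. The series text describes obese ZSF1 rats as combining hypertension, obesity and metabolic syndrome, whereas the sample labels call the obesity diet-induced, and no source used here gives the diets, the ages of the untreated rats or the heart chamber. Nothing in the labels says how the samples map to animals, so the p-values measure the spread between these samples.

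Ferritin is a hollow shell of heavy and light chains that stores iron in a harmless form. The heavy chain oxidises the iron and the light chain helps it to mineralise. Transferrin receptor brings iron into the cell, ferroportin lets it out, and heme oxygenase 1 frees it from heme. The iron regulatory proteins encoded by Aco1 and Ireb2 bind stem-loops in messenger RNA when iron is scarce, which holds back ferritin translation and stabilises the Tfrc transcript. Much of the control of ferritin therefore acts on translation and is not seen in a transcript level. The heart depends on this system because its mitochondria use much iron for heme and iron-sulfur clusters.

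The 7 genes span a wide range of levels. As deposited, Fth1 held rank 57 of the 10526 tested genes in lean hearts, rank 52 in obese hearts and rank 49 in NAM-treated hearts. Ftl1 was next, at ranks 1581, 1345 and 2114, followed by Tfrc at 4248, 3467 and 3037. Aco1 and Ireb2 came close together in lean hearts, at ranks 4702 and 4708, and their lean samples overlapped in TPM. Hmox1, at ranks 6092, 8132 and 8180, and Slc40a1, at ranks 9383, 9767 and 10073, were the least abundant of the group. TPM corrects for transcript length, which helps to compare levels between genes. That correction does not cover the further gene copies of Ftl1 and Fth1 described below, so the levels of these genes are less certain.

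The 250 bases before the start site are shown for the 2 iron regulatory protein genes, whose transcripts both rose in NAM-treated against obese hearts as deposited, and for Tfrc, the receptor transcript that their proteins bind. RefSeq promoters of the rat assembly GRCr8 were matched for 4 of the 7 genes (Aco1, Ireb2, Tfrc and Slc40a1). Ftl1, Fth1 and Hmox1 were not matched. The windows lie at chr5:60055645-60055894 on the plus strand for Aco1, at chr8:64160838-64161087 on the plus strand for Ireb2, and at chr11:81690319-81690568 on the minus strand for Tfrc. Each is written 5′ to 3′ in the direction of transcription, and capitals mark matches to the motifs searched.
Aco1: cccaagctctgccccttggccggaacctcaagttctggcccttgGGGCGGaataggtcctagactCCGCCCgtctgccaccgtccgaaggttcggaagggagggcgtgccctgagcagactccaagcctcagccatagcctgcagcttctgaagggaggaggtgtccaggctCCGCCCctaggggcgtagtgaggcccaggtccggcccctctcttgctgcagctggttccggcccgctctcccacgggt
Ireb2: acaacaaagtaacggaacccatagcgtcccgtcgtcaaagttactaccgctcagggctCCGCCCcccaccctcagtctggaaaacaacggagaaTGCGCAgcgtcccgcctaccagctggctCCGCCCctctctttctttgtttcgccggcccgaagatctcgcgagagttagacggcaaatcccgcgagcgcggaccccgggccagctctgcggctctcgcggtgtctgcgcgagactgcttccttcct
Tfrc: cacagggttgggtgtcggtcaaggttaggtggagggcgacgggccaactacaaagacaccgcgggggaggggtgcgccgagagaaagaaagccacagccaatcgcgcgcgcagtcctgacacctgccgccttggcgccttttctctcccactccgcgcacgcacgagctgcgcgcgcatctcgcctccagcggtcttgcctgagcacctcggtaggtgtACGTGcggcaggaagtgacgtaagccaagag

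These windows were rich in G and C, at 66.8% for Aco1, 62.4% for Ireb2 and 64.8% for Tfrc, against a median of 51.2% over 33469 RefSeq start-site windows. Matches were sought on both strands. The GC box, GGGCGG, had 3 matches in Aco1, 2 in Ireb2 and 0 in Tfrc, and was present in 30.5% of all windows. The core TGCGCA had 1 match, in Ireb2, and was present in 6.14% of all windows. The hypoxia response core ACGTG had 1 match, in Tfrc, and was present in 16.6% of all windows. The antioxidant response core TGANNNNGC, present in 34.7% of all windows, had 0 matches in the 4 matched genes. No match to one motif overlapped a match to another. Such matches describe the letters of the window only. The iron-responsive element loop was sought on the transcribed strand in the first 50 transcribed bases and had 0 matches in the 4 genes, against 1.60% of all start sites. The rest of each transcript was not searched, and neither were Ftl1 and Fth1. This search therefore cannot show whether any of these transcripts carries the element.

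TPM values state each gene as a share of its library, and that share was taken up unequally by mitochondrial transcripts. The 13 mitochondrial genes made up 66.2% to 70.4% of the TPM in lean samples, 74.6% to 75.5% in obese samples and 69.9% to 73.8% in NAM-treated samples. The tested gene at the median moved by -0.20 on the log2 scale in obese against lean, by 0.25 in NAM-treated against obese, and by 0.05 in NAM-treated against lean. Changes are therefore given as deposited and after median-of-ratios rescaling, which divides each sample by its median ratio to a reference over genes and leaves the median gene at 0.00, -0.01 and 0.00. The 3 comparisons share samples, so they are given side by side and are not independent. Fold changes are differences of log2(TPM + 1), tested with limma over all tested genes. The added 1 understates change most for genes near or below 1 TPM. It also does so for genes at a few TPM, such as Hmox1, Ireb2, Aco1 and Tfrc. The ratios given below carry no added 1. In pieces of whole tissue, fewer cells of a type and less RNA per cell cannot be told apart.

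Counted over the 7 genes, 1 was called in obese against lean as deposited (Ireb2, lower), where 16.8% of all tested genes were called and 16.5% were called lower. NAM-treated against obese, 3 were called, Aco1 and Ireb2 higher and Ftl1 lower, where 29.2% of all tested genes were called, 28.8% higher and 0.466% lower. NAM-treated against lean, 0 of the 7 were called with limma, 3 had an unadjusted p below 0.05, and 1.83% of all tested genes were called. The shares of genes called higher or lower show that Aco1 and Ireb2 moved in the same direction as most called genes, and that Ftl1 moved in the direction of 49 of the 3077 called genes.

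After rescaling, 0 of the 7 were called in obese against lean (1 with an unadjusted p below 0.05, 1.34% of all tested genes called). Only Ftl1 was called in NAM-treated against obese, where 0.713% of all tested genes were called and 0.513% were called lower. NAM-treated against lean, 0 were called (2 with an unadjusted p below 0.05, 2.36% of all tested genes called). Groups did not overlap for 1, 3 and 0 of the 7 genes as deposited, where the shares of all tested genes were 23.8%, 28.4% and 10.7%, and for 1, 2 and 1 rescaled, where the shares were 9.57%, 9.18% and 12.2%. The median change of the 7 genes was -0.23, 0.21 and 0.02 as deposited, beside -0.20, 0.25 and 0.05 for all tested genes, and -0.03, -0.05 and -0.04 rescaled, beside 0.00, -0.01 and 0.00.

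**Figure D1:**
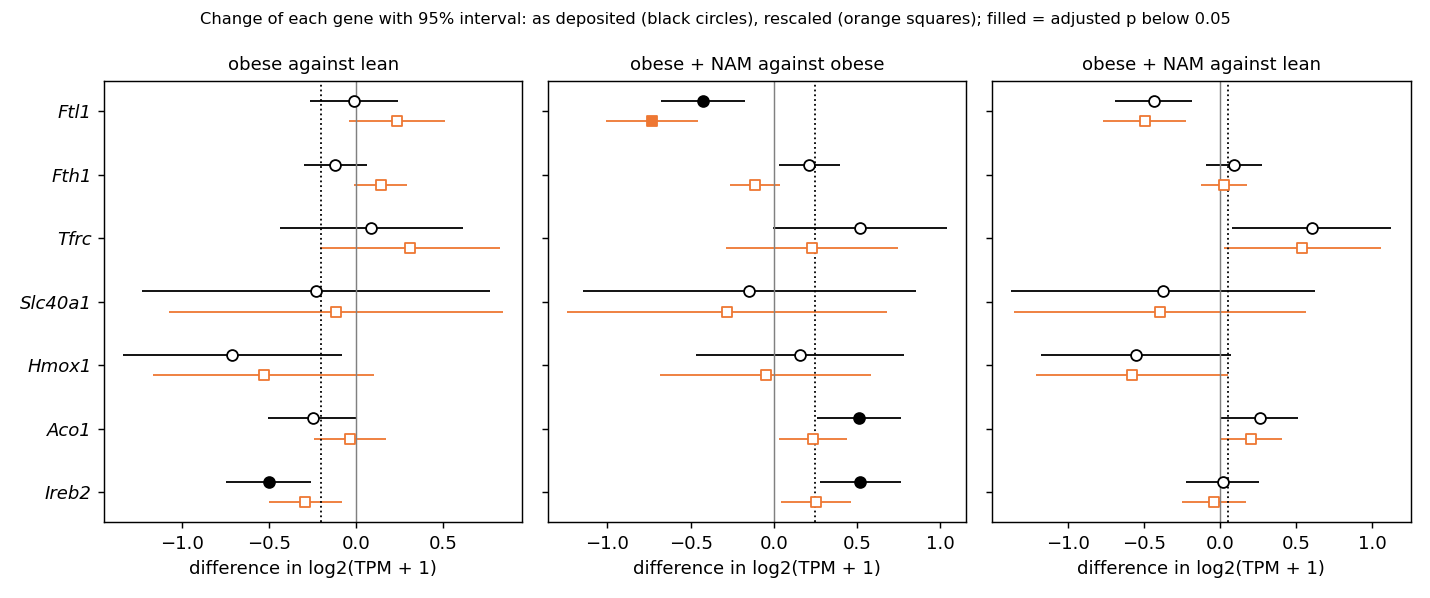
Change of each of the 7 genes in each comparison on the log2(TPM + 1) scale, as deposited and after rescaling (black circles and orange squares with 95% intervals, filled where the adjusted p is below 0.05). The dotted line marks the median of all tested genes as deposited. Ftl1 in NAM-treated against obese is at -0.42 as deposited and -0.73 rescaled, while Aco1 and Ireb2 shrink from 0.51 and 0.52 to 0.24 and 0.25.

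**Figure D2:**
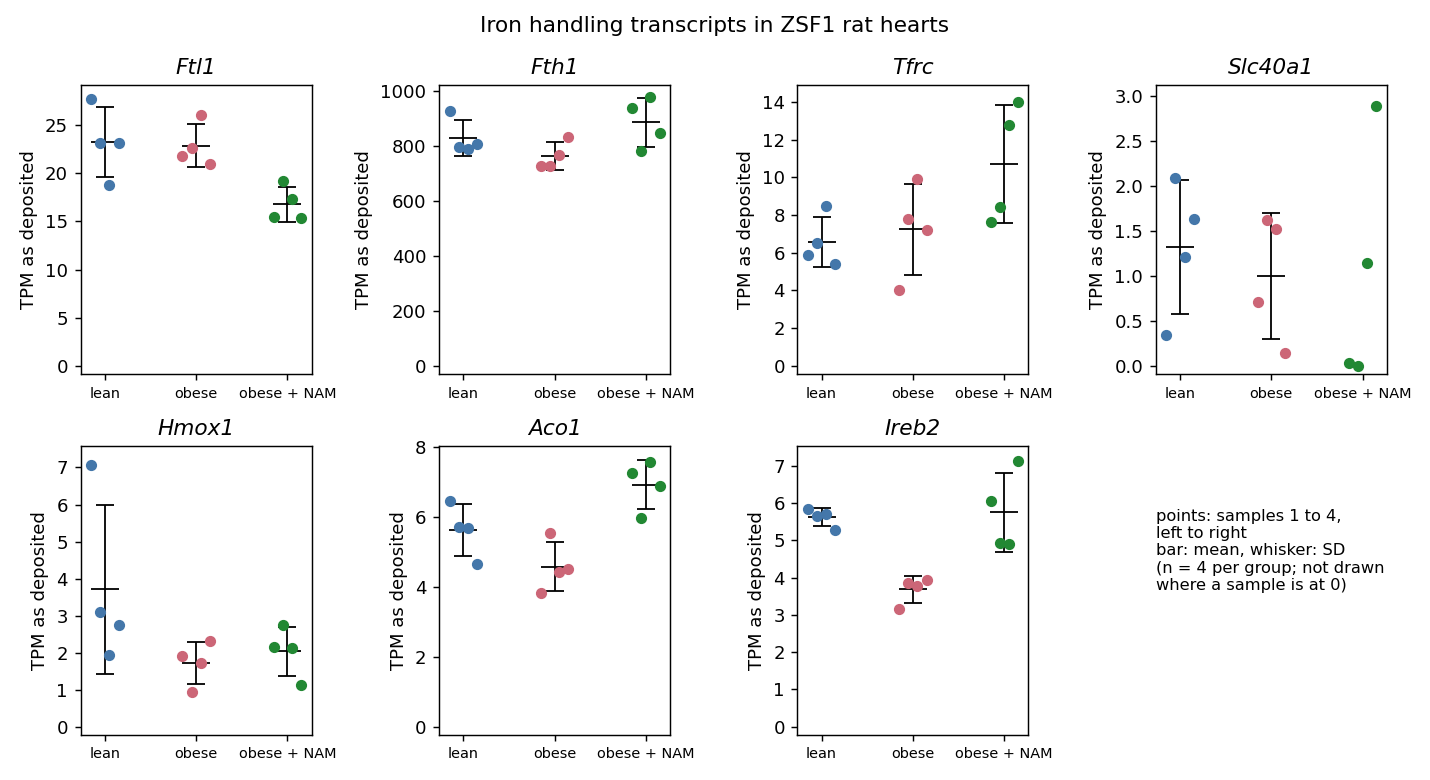
Level of each of the 7 genes in TPM as deposited (vertical axes) in the 4 lean, 4 obese and 4 NAM-treated obese samples (points, samples 1 to 4 from left to right), with mean (bar) and SD (whisker). The 4 NAM-treated Ftl1 points lie below the 4 obese points, the 4 obese Ireb2 points lie below all lean points, and no mean is drawn for Slc40a1 in the NAM-treated group, where 1 sample is listed at 0.

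Ftl1, the ferritin light chain, fell in NAM-treated hearts against untreated obese hearts. Its level in lean samples 1 to 4 was 27.7, 23.1, 18.8 and 23.2 TPM, in obese samples 21.8, 22.6, 26.1 and 20.9 TPM, and in NAM-treated samples 15.4, 19.2, 17.3 and 15.3 TPM. All 4 NAM-treated values lay below all 4 obese values, and 3 of the 4 lay below the lowest lean value, that of lean sample 3. The means were 23.2 ± 3.62 TPM in lean, 22.9 ± 2.24 TPM in obese and 16.8 ± 1.82 TPM in NAM-treated hearts (SD, n = 4 each). NAM-treated against obese, the change was -0.42 on the log2 scale (SE 0.12, limma adjusted p = 0.0186).

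The fall of Ftl1 was larger after rescaling. The rescaled means were 22.0 ± 2.97 TPM in lean, 26.0 ± 2.67 TPM in obese and 15.4 ± 2.77 TPM in NAM-treated hearts, and the highest NAM-treated value, 19.3 TPM, stayed below the lowest obese value, 23.9 TPM. The rescaled change was -0.73 (SE 0.13, adjusted p = 0.0280), with a 95% interval from -1.01 to -0.46. At this size the change lay at percentile 1.87 of all tested genes, counted from the most negative. Against lean hearts, the NAM-treated level of Ftl1 was -0.44 as deposited (adjusted p = 0.0874) and -0.50 rescaled (adjusted p = 0.0619), which did not pass the test. Obese against lean, Ftl1 was -0.01 as deposited (adjusted p = 0.949) and 0.24 rescaled (adjusted p = 0.387).

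Single samples decide whether Ftl1 passes the threshold of 0.05. As deposited, the call for NAM-treated against obese was lost without obese sample 3 (adjusted p = 0.0559), without NAM-treated sample 1 (0.0545) and without NAM-treated sample 4 (0.0540), while the change ranged from -0.49 to -0.36 over the 12 samples left out in turn. After rescaling it was lost without obese sample 3 (0.0908) or 4 (0.0550), and without NAM-treated sample 1 (0.0932), 3 (0.0681) or 4 (0.0874), with changes from -0.84 to -0.67. NAM-treated sample 1 also carried the most RNA of Myl7, a myosin light chain of the atrium, at 192 TPM against 2.13 to 2.89 TPM in the other 3 NAM-treated samples. In the obese samples Myl7 ranged from 2.17 to 99.3 TPM and in the lean samples from 0.677 to 8.50 TPM. The part of this marker in the Ftl1 result was not tested.

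Fth1, the ferritin heavy chain, did not pass the test in any comparison. It stood at 927, 797, 788 and 807 TPM in lean samples, at 728, 727, 768 and 833 TPM in obese samples, and at 938, 783, 979 and 846 TPM in NAM-treated samples. The groups overlapped, and lean sample 1 stood above the other lean samples. The means were 829.8 ± 65.5 TPM in lean, 764 ± 49.96 TPM in obese and 887 ± 88.5 TPM in NAM-treated hearts (SD, n = 4 each).

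The sign of the Fth1 differences depended on the scaling. Obese against lean, Fth1 was -0.12 as deposited (adjusted p = 0.350) and 0.14 rescaled (adjusted p = 0.335). NAM-treated against obese, it was 0.21 as deposited (SE 0.08, adjusted p = 0.0759) and -0.11 rescaled (SE 0.07, adjusted p = 0.468). As deposited, the last difference passed the test without NAM-treated sample 2, at 0.27 (adjusted p = 0.0267). NAM-treated against lean, Fth1 was 0.09 as deposited and 0.03 rescaled.

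A ratio of 2 genes within a sample does not move with the scaling, so the ferritin chains were also set against each other. The Fth1 to Ftl1 ratio was 33.5, 34.4, 41.9 and 34.8 in lean samples, 33.3, 32.2, 29.5 and 39.8 in obese samples, and 60.8, 40.9, 56.7 and 55.3 in NAM-treated samples. All 4 NAM-treated ratios lay above all 4 obese ratios, although NAM-treated sample 2 was close to obese sample 4 and below lean sample 3. The mean ratio was 36.2 ± 3.85 in lean hearts, 33.7 ± 4.38 in obese hearts and 53.4 ± 8.66 in hearts given NAM.

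The difference of the log2 ratio was 0.66 in NAM-treated against obese hearts (exact 2-sided permutation p = 0.0286, the smallest that 4 against 4 samples can give). Adjusted over the 13 tests of ratios and of the ferritin sum, that p was 0.186, so the difference did not pass after correction. It was 0.55 against lean hearts (exact permutation p = 0.0571, adjusted 0.186) and -0.10 in obese against lean hearts (exact permutation p = 0.371). The sum of both chains, almost all of it Fth1, was 853 ± 68.7 TPM in lean, 787 ± 49.5 TPM in obese and 903 ± 87.7 TPM in NAM-treated hearts. These are deposited values, and the sum, unlike a ratio, moves with the scaling: its log2 difference was -0.12 as deposited and 0.14 rescaled in obese against lean, and 0.20 and -0.13 in NAM-treated against obese. As deposited, the sum did not pass a test in any comparison (exact permutation p = 0.171 between obese and lean, 0.0571 with NAM against obese, and 0.371 with NAM against lean).

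Both ferritin genes have further named copies in the rat genome, so their levels carry an added uncertainty. How alike the copies are in sequence was not examined. The RefSeq gene table for GRCr8 names 21 further copies of Ftl1, of which 15 are pseudogenes, and 6 of Fth1, of which 5 are pseudogenes. The deposited table lists 0 of these copies under those names, and how the authors' counting treated reads that match more than 1 copy was not found in any source used here. The other 5 genes have 0 such copies in that table.

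**Figure D3:**
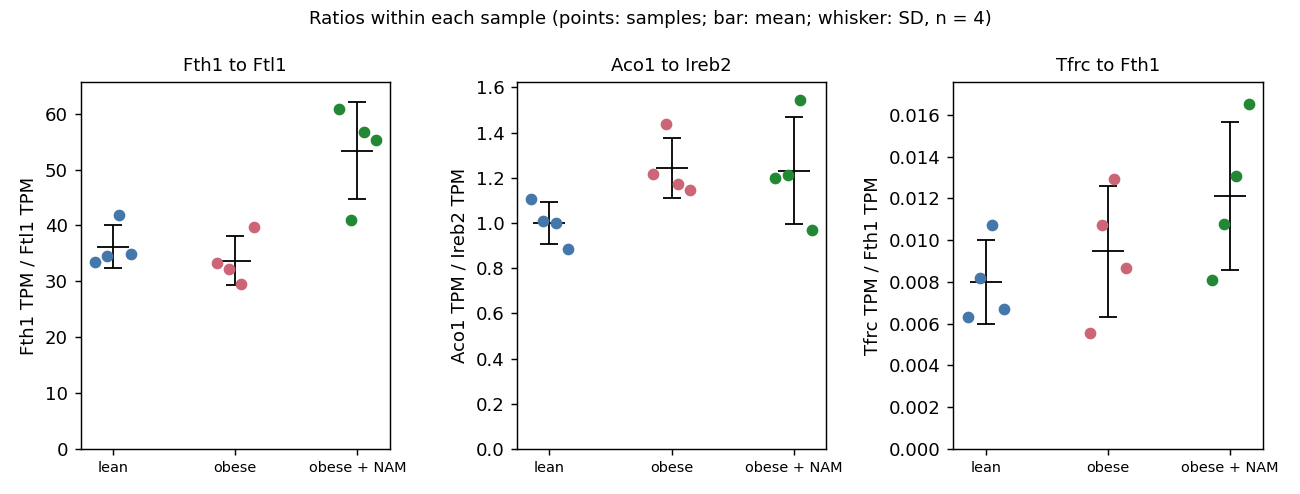
Ratios of the ferritin chains (Fth1 to Ftl1), of the iron regulatory proteins (Aco1 to Ireb2), and of receptor to heavy chain (Tfrc to Fth1), in each sample (points) with mean (bar) and SD (whisker, n = 4 per group). The NAM-treated Fth1 to Ftl1 ratios, 40.9 to 60.8, lie above the obese ratios, 29.5 to 39.8, and the obese Aco1 to Ireb2 ratios, 1.15 to 1.44, lie above the lean ratios, 0.885 to 1.11.

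Tfrc, which takes up transferrin-bound iron, had its highest mean in the NAM-treated hearts and did not pass the test. Its level was 5.88, 6.54, 8.46 and 5.39 TPM in lean samples, 4.05, 7.79, 9.91 and 7.22 TPM in obese samples, and 7.60, 8.44, 12.8 and 14.0 TPM in NAM-treated samples. The groups overlapped, with NAM-treated samples 3 and 4 above every other sample. NAM-treated against obese, Tfrc was 0.52 as deposited (SE 0.24, adjusted p = 0.122) and 0.23 rescaled (adjusted p = 0.681). Without obese sample 1, the lowest of its group, these were 0.30 (adjusted p = 0.301) and 0.028 (adjusted p = 0.962).

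Against lean hearts, NAM-treated Tfrc was 0.60 as deposited (adjusted p = 0.231), with a 95% interval from 0.08 to 1.13, and 0.54 rescaled (adjusted p = 0.274). Both changes lay at percentile 98.2 of all tested genes. The mean Tfrc to Fth1 ratio was 0.00799 ± 0.00201 in lean hearts, 0.00946 ± 0.00312 in obese hearts and 0.0121 ± 0.00356 in those given NAM (exact permutation p = 0.514 between obese and lean, 0.343 with NAM against obese, and 0.114 with NAM against lean). Obese against lean, Tfrc itself was 0.09 as deposited (adjusted p = 0.829) and 0.31 rescaled (adjusted p = 0.565).

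Slc40a1, which encodes ferroportin, the iron exporter, was near the lower end of the tested range. It stood at 0.349, 2.09, 1.21 and 1.64 TPM in lean samples, and at 0.709, 1.62, 1.52 and 0.146 TPM in obese samples. In the NAM-treated samples it was 0.0306 TPM in sample 1, listed at 0 in sample 2, 1.15 TPM in sample 3 and 2.89 TPM in sample 4. The NAM-treated group thus held both the lowest and the highest value of the 12, and all groups overlapped. The differences on the log2(TPM + 1) scale were -0.23 in obese against lean (adjusted p = 0.757) and -0.15 in NAM-treated against obese (adjusted p = 0.832). Rescaled, they were -0.11 (adjusted p = 0.934) and -0.28 (adjusted p = 0.800). The 95% interval of the deposited change in NAM-treated against obese, from -1.15 to 0.85, is wide, and a TPM table does not give the reads behind such low values.

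Hmox1, which opens the heme ring and releases its iron, was highest in lean sample 1. It stood at 7.06, 3.10, 1.93 and 2.74 TPM in lean samples, 1.91, 0.943, 1.71 and 2.31 TPM in obese samples, and 2.15, 2.73, 2.13 and 1.13 TPM in NAM-treated samples. The groups overlapped. Obese against lean, Hmox1 was -0.71 as deposited (SE 0.29, adjusted p = 0.106) and -0.53 rescaled (adjusted p = 0.403). Without lean sample 1, the deposited difference was -0.41 (adjusted p = 0.224). NAM-treated against obese, Hmox1 was 0.16 as deposited (adjusted p = 0.705) and -0.05 rescaled (adjusted p = 0.956).

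Slc40a1 and Hmox1 are known for high expression in macrophages, which recycle iron from red cells, so markers of both cell types were read beside them. Of 16 macrophage markers in the table, 0 were at 0 in any sample, and the summed level ranged from 228 to 297 TPM in lean, 161 to 380 TPM in obese and 268 to 296 TPM in NAM-treated samples. By mean, the largest part of these sums was Cd74, at 152 TPM in lean, 120 TPM in obese and 153 TPM in NAM-treated hearts. Lyz2 came next, at 49.4, 81.6 and 62.6 TPM. Of the 15 macrophage markers tested, 1 was called as deposited, Cd74, lower in obese against lean and higher in NAM-treated against obese. The list as a whole did not follow Cd74. In obese against lean, 10 of the 15 changes were positive as deposited (median 0.09) and 14 rescaled (median 0.28). With NAM against obese, 8 were positive as deposited (median 0.01) and 2 rescaled (median -0.23). Rescaled, 0 were called in these comparisons. Cd163, the macrophage receptor for hemoglobin, ranged from 0.855 to 5.45 TPM in the obese samples. The 8 erythroid markers found summed to 725 to 1599 TPM in lean, 1664 to 4028 TPM in obese and 488 to 2305 TPM in NAM-treated samples, and Ahsp was at 0 in at least 1 sample. All 4 obese sums lay above all 4 lean sums, and they overlapped those of the NAM-treated group. With limma, 0 of the 6 tested erythroid markers were called in any comparison on either scale. Unadjusted p was below 0.05 for 2 in obese against lean and 3 in NAM-treated against obese as deposited, and for 5 and 4 rescaled. Their median changes in these comparisons were 1.02 and -0.96 as deposited and 1.24 and -1.26 rescaled. Of the 6 changes, 5 were positive in obese against lean on both scales. NAM-treated against obese, 1 was positive as deposited and 0 rescaled. The part of the macrophage and erythroid markers in the values of Hmox1 and Slc40a1 was not tested.

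Aco1, a cytosolic aconitase that becomes iron regulatory protein 1 when its iron-sulfur cluster is lost, rose in NAM-treated against obese hearts as deposited. It stood at 6.46, 5.71, 5.69 and 4.67 TPM in lean samples, 3.84, 5.54, 4.43 and 4.53 TPM in obese samples, and 7.27, 5.98, 7.57 and 6.90 TPM in NAM-treated samples. All 4 NAM-treated values lay above all 4 obese values, while lean and obese overlapped. The means were 5.63 ± 0.737 TPM in lean, 4.58 ± 0.707 TPM in obese and 6.93 ± 0.689 TPM in NAM-treated hearts (SD, n = 4 each).

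NAM-treated against obese, the change of Aco1 was 0.51 as deposited (SE 0.12, adjusted p = 0.00863), of which 0.26 was beyond the median gene. After rescaling it was 0.24 (SE 0.09, adjusted p = 0.252), and all 4 NAM-treated values still lay above all 4 obese values. Obese against lean, Aco1 was -0.25 as deposited (adjusted p = 0.153) and -0.03 rescaled (adjusted p = 0.902). NAM-treated against lean, it was 0.26 as deposited (adjusted p = 0.279) and 0.20 rescaled (adjusted p = 0.302).

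Ireb2, which encodes iron regulatory protein 2, a protein that is degraded when iron is plentiful, fell in obese against lean hearts and rose in NAM-treated against obese hearts as deposited. It stood at 5.83, 5.67, 5.70 and 5.28 TPM in lean samples, 3.16, 3.86, 3.78 and 3.94 TPM in obese samples, and 6.06, 4.93, 4.91 and 7.12 TPM in NAM-treated samples. The obese values lay below all values of both other groups, and the lean values were the tightest, with an SD of 0.238 TPM around a mean of 5.62 TPM. The obese mean was 3.68 ± 0.359 TPM and the NAM-treated mean 5.76 ± 1.06 TPM (SD, n = 4 each).

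The deposited change of Ireb2 was -0.50 in obese against lean (SE 0.11, adjusted p = 0.0112) and 0.52 in NAM-treated against obese (SE 0.11, adjusted p = 0.00701). These differences lay -0.30 and 0.27 from the median gene. After rescaling the change was -0.29 in obese against lean (SE 0.10, adjusted p = 0.151), where the groups still did not overlap, and 0.25 in NAM-treated against obese (SE 0.10, adjusted p = 0.228), where they overlapped. NAM-treated against lean, Ireb2 was 0.02 as deposited (adjusted p = 0.962) and -0.04 rescaled (adjusted p = 0.888). The deposited calls of Ireb2 and Aco1 passed the threshold with each of the 12 samples left out in turn, with adjusted p from 0.00854 to 0.0343 for Ireb2 in obese against lean, and up to 0.0237 for Ireb2 and 0.0278 for Aco1 in NAM-treated against obese.

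Heart muscle markers were read beside Aco1 and Ireb2. The 10 cardiac muscle markers found, several of which atrial muscle also expresses, summed to 22220 to 25833 TPM in lean, 15653 to 17963 TPM in obese and 19646 to 22543 TPM in NAM-treated samples. As deposited, 9 of these 10 markers were called lower and 1 higher in obese against lean, and 9 were called higher and 0 lower in NAM-treated against obese, where 16.8% and 29.2% of all tested genes were called. Rescaled, 3 were called lower and 1 higher in the former comparison, and 1 higher and 0 lower in the latter, where 1.34% and 0.713% of all tested genes were called. Their part in the Aco1 and Ireb2 results was not tested.

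Set against each other, Aco1 and Ireb2 were near equal in lean hearts, with ratios of 1.11, 1.01, 0.998 and 0.885. The Aco1 to Ireb2 ratio was 1.22, 1.44, 1.17 and 1.15 in obese samples and 1.20, 1.21, 1.54 and 0.969 in NAM-treated samples. All 4 obese ratios lay above all 4 lean ratios, and the NAM-treated ratios overlapped both groups. Obese against lean, the log2 ratio was 0.31 higher (exact permutation p = 0.0286, the smallest possible, adjusted 0.186 over the 13 tests), so it did not pass after correction. NAM-treated against obese it was -0.03 (exact permutation p = 0.943), and NAM-treated against lean 0.29 (exact permutation p = 0.114).

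Other genes of iron uptake, storage, export and sensing had list medians near that of all tested genes as deposited. Of 25 such genes, 19 were tested. In obese against lean hearts 3 of them fell and 0 rose, with a median of -0.16, and in NAM-treated against obese hearts 6 rose and 0 fell, with a median of 0.17. Of all tested genes, 16.5% were called lower in the former and 28.8% higher in the latter comparison, which is close to the shares of this list. Hjv, a co-receptor that controls hepcidin, fell from 37.1 ± 3.88 TPM in lean to 26.9 ± 1.01 TPM in obese hearts (-0.44, adjusted p = 0.0165) and rose to 39.8 ± 6.17 TPM with NAM (0.54, adjusted p = 0.00543). Pcbp2, an iron chaperone, fell by 0.28 in obese against lean (adjusted p = 0.0390). Slc39a14, an importer of iron not bound to transferrin, rose from 4.71 ± 0.519 to 7.60 ± 0.752 TPM with NAM (0.59, adjusted p = 0.00674). Rescaled, these changes were -0.19 and 0.22 for Hjv, -0.03 for Pcbp2 and 0.32 for Slc39a14, and none passed the test. Fbxl5, part of the ligase that marks the Ireb2 protein for degradation, and Ncoa4, the receptor that delivers ferritin to lysosomes, were chosen after their values were seen. Fbxl5 rose by 0.38 (adjusted p = 0.0126) and Ncoa4 by 0.32 (adjusted p = 0.0289) in NAM-treated against obese hearts as deposited. Rescaled, Fbxl5 was 0.08 (adjusted p = 0.687) and Ncoa4 was 0.01 (adjusted p = 0.951).

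Genes of heme synthesis, transport and breakdown were also called at shares close to those of all tested genes as deposited. Of 21 tested, 3 fell and 0 rose in obese against lean (median -0.25, with 16.5% of all tested genes called lower), and 7 rose and 0 fell in NAM-treated against obese (median 0.18, with 28.8% of all tested genes called higher). Abcb6, a porphyrin transporter, fell from 10.7 ± 0.676 to 7.77 ± 0.617 TPM in obese hearts (-0.41, adjusted p = 0.0120) and rose to 11.4 ± 1.22 TPM with NAM (0.50, adjusted p = 0.00430). Slc48a1, which carries heme out of lysosomes, fell by 0.40 in obese against lean (adjusted p = 0.0217). Rescaled, these changes were -0.18 and 0.21 for Abcb6 and -0.16 for Slc48a1, and none passed the test.

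Genes of mitochondrial iron and of iron-sulfur clusters had the most calls of the lists. This list also holds genes of cluster assembly outside mitochondria, such as Ciapin1 and Ciao1. Of 23 tested, 11 fell and 0 rose in obese against lean (median -0.37, with 16.5% of all tested genes called lower), and 11 rose and 0 fell in NAM-treated against obese (median 0.28, with 28.8% of all tested genes called higher). Hspa9, the mitochondrial chaperone that hands over iron-sulfur clusters, fell from 170 ± 10.3 to 115 ± 12.7 TPM in obese hearts (-0.56, adjusted p = 0.00210) and rose to 171 ± 6.11 TPM with NAM (0.57, adjusted p = 0.00292). Rescaled, its changes were -0.31 (adjusted p = 0.0623) and 0.24 (adjusted p = 0.133). Nfu1, a cluster carrier, rose by 0.53 in NAM-treated against obese (adjusted p = 0.00323), and was 0.22 rescaled (adjusted p = 0.199). Slc25a28, an importer of iron into mitochondria, was not called. It was at -0.05 in obese against lean and -0.01 in NAM-treated against obese as deposited, and at 0.15 and -0.27 rescaled. Slc25a37, a further importer, was not tested.

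Of 13 tested genes of the NRF2 pathway and of lipid peroxide defence, 2 fell and 0 rose in obese against lean (median -0.15, with 16.5% of all tested genes called lower), and 2 rose and 0 fell in NAM-treated against obese (median 0.21, with 28.8% of all tested genes called higher). Gpx4, which reduces lipid peroxides, fell by 0.35 (adjusted p = 0.0111) and Txnrd1, a thioredoxin reductase, by 0.34 (adjusted p = 0.0425) in obese against lean hearts. Gclm, a subunit of the enzyme that starts glutathione synthesis, rose by 0.44 (adjusted p = 0.00446) in NAM-treated against obese hearts, and Gpx4 rose by 0.24 (adjusted p = 0.0349). Rescaled, Gpx4 was -0.10 and -0.08, Txnrd1 -0.12 and Gclm 0.15 in those comparisons, and none passed the test.

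In NAM-treated against lean hearts, 0 genes of these 4 lists were called with limma as deposited, and 3, 1, 5 and 3 had an unadjusted p below 0.05. After rescaling, 0 genes of the 4 lists were called in any comparison. Unadjusted p-values below 0.05 then numbered 5, 2, 7 and 3 in obese against lean, 4, 4, 7 and 1 in NAM-treated against obese, and 3, 3, 6 and 3 in NAM-treated against lean, in the order of the lists above. The rescaled medians in NAM-treated against obese ran from -0.08 to -0.02, beside the -0.01 of all tested genes. They ran from -0.12 to 0.07 in obese against lean and from -0.11 to 0.04 in NAM-treated against lean, beside 0.00 in both. The lowest median in each of these 2 comparisons was that of the mitochondrial iron and iron-sulfur cluster list. There, 5 and 3 of the 23 changes were positive.

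**Figure D4:**
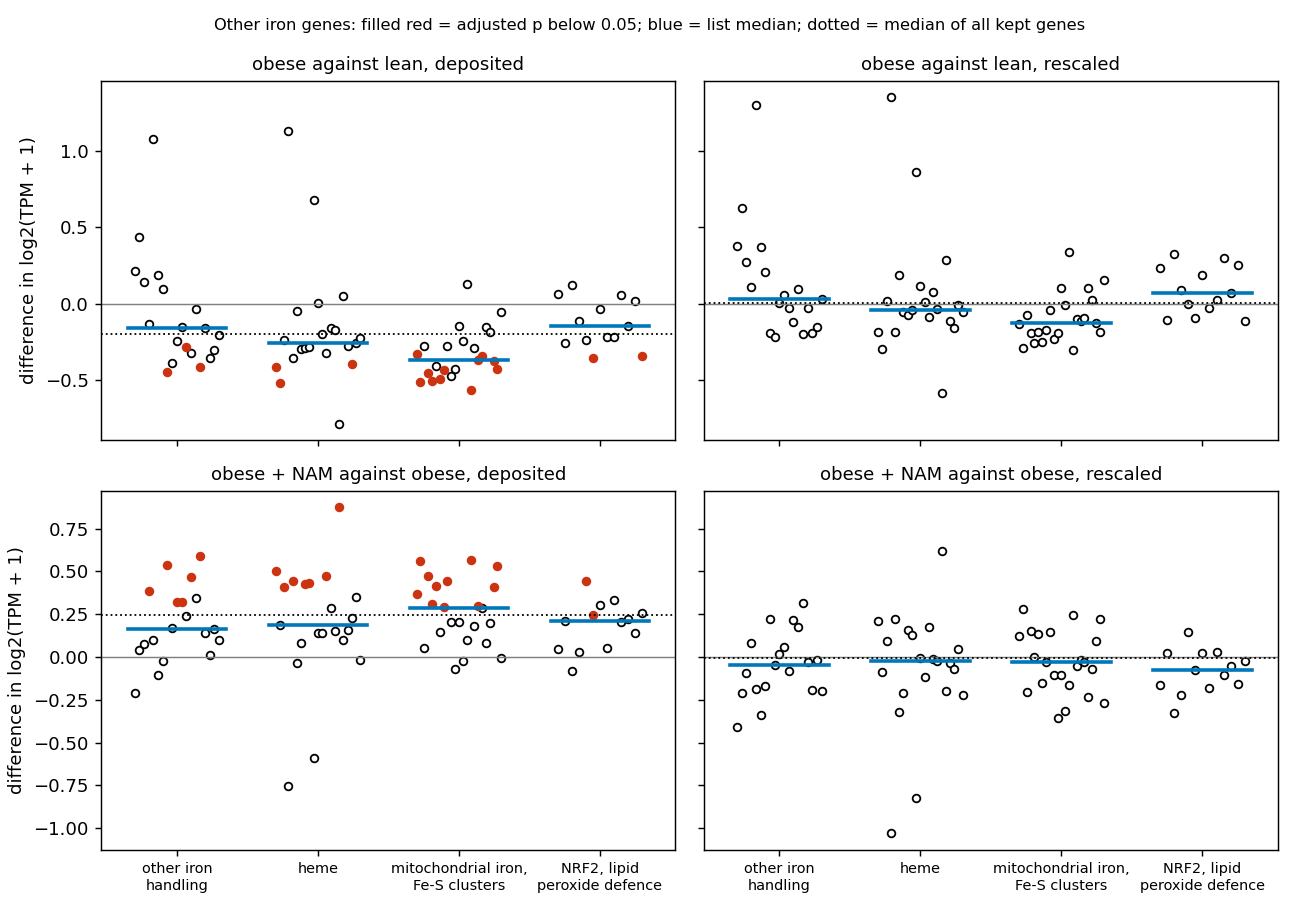
Change of every tested gene of the 4 lists on the log2(TPM + 1) scale, as deposited and rescaled, in obese against lean and in NAM-treated against obese (points, red where the adjusted p is below 0.05; blue lines mark list medians and dotted lines the median of all tested genes). As deposited the mitochondrial iron and iron-sulfur cluster list lies at a median of -0.37 and 0.28, and after rescaling at -0.12 and -0.03.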

How the data were processed

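RNA-seq of 12 rat heart samples (4 lean, 4 obese, 4 NAM-treated obese) was analysed from 1 table of all samples. The authors deposited TPM values per gene; the processing notes of the submitters name the genome build Rnor_6.0 and the tool limma, and which aligner and quantifier were used is not stated there. TPM keeps no depth, so the reads behind each value are unknown. In the 4 NAM-treated columns, which are TPM values deposited with text marks in other cells, 498 genes carry a mark in place of a number. These were left out, leaving 17104 of 17602 genes, of which 10526 reached 1 TPM in at least 4 of 12 samples. None of the 66 sample pairs was identical (0 pairs; r from 0.941 to 0.968).

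Differences of log2(TPM + 1) were tested with limma 3.58.1 in R 4.3.3 (1 mean per group over all 12 samples, trended and robust eBayes, 2-sided), with Benjamini-Hochberg adjustment over all tested genes at 0.05. The same fit was run after median-of-ratios rescaling. The fit was tested on simulated data. Ratios and the ferritin sum were compared by exact permutation. The deposited-scale limma results were recomputed with other pseudocounts (0.1 and 5), with no filter or a mean of at least 5 TPM, with eBayes without trend and robust settings, on the 8 samples of each pair, and without mitochondrial genes. Limma results on both scales were recomputed with the replicate number as a block, and these and the ratios without each sample in turn. The members, lists and tests were chosen with earlier results of these data known. All 7 members are named; from each list the 2 genes with the smallest p in obese against lean and in NAM-treated against obese are named, except items that are not reported here. The listed genes Pcbp1, Ftmt, Srxn1, Hbb-b1, Rhag, Ttn, Myh1 and Myh2 were not matched and not analysed here. Sequences are from RefSeq (GRCr8), and no coordinates of the deposited table were used.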

Additional observations from a re-analysis of the deposited data

Results flagged for a closer look

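In 4 of 56 groups of 4 samples checked, 1 sample lay so far from the others that its gap passed 0.829 of the range of the group, and chance alone gives about 1 in 20 such groups. As deposited, lean sample 1 had the highest Fth1 level, 927 TPM, against 788 to 807 TPM in the other lean samples. Through it, it had the highest ferritin sum of its group, 955 TPM against 807 to 830 TPM. Rescaled, Fth1 in lean sample 1 was 847 TPM against 756 to 773 TPM, a gap that was not flagged. Mitochondrial transcripts made up 66.2% of TPM there, the lowest of the 12 samples, and Hmox1 was highest there, at 7.06 TPM. Lean sample 3 had the highest Fth1 to Ftl1 ratio of its group, 41.9 against 33.5 to 34.8. Obese sample 4 had a Tfrc to Slc40a1 ratio of 49.6 against 4.82 to 6.50 in the other obese samples, since its Slc40a1 level was 0.146 TPM. This ratio did not pass the test, at a log2 difference of 0.72 in obese against lean (exact permutation p = 0.514), and without obese sample 4 the difference turned to -0.067.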

How the results depend on the processing

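The scaling changed the most. Rescaled, 141 genes were called in obese against lean and 75 in NAM-treated against obese, against 1770 and 3077 as deposited, and 0 and 1 of the 7 members against 1 and 3. The sign turned for Ftl1 (0.24) and Fth1 (0.14) in obese against lean, Fth1 (-0.11) and Hmox1 (-0.049) in NAM-treated against obese, and Ireb2 (-0.038) in NAM-treated against lean. Calls were lost for Ireb2 (-0.29 and 0.25) and Aco1 (0.24), and the ferritin sum moved to 0.14 and -0.13. The split of higher against lower calls went from 37 and 1733 to 62 and 79 in obese against lean, and from 3028 and 49 to 21 and 54 in NAM-treated against obese. With TPM recomputed without the 13 mitochondrial genes, 83, 323 and 741 genes were called in the 3 comparisons, and 0 and 1 members in the first 2. Obese against lean then gave Ftl1 0.29, Fth1 0.19, Aco1 0.0065 and Ireb2 -0.29, and NAM-treated against obese gave Aco1 0.38 (adjusted p = 0.0871) and Ireb2 0.41 (adjusted p = 0.0770). The cause was not tested. With no filter, 124 genes were called in NAM-treated against lean, against 193. A mean of at least 5 TPM left out Slc40a1 and Hmox1, which gave no value there. The other pseudocounts, the fit without trend and the fit to 8 samples changed no member's direction or call.

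Leaving out 1 sample at a time, the genes called ranged from 1006 to 1966, 1867 to 3640 and 69 to 188 as deposited, and from 27 to 224, 10 to 156 and 105 to 291 rescaled. As deposited, the count for obese against lean moved by over 1.5 times without lean sample 1 (1006) or obese sample 3 (1101), and that for NAM-treated against obese without obese sample 3 (2051) or NAM-treated sample 1 (1867). Members called ranged from 1 to 1, 2 to 4 and 0 to 0 as deposited, and from 0 to 0, 0 to 1 and 0 to 1 rescaled, where Ftl1 in NAM-treated against lean was called without lean sample 3 (-0.58, adjusted p = 0.0478) or NAM-treated sample 2 (-0.60, adjusted p = 0.0233). Signs turned within these ranges for results that were not called: in obese against lean, Ftl1 -0.11 to 0.072, Tfrc -0.066 to 0.30, Slc40a1 -0.47 to 0.015, rescaled Slc40a1 -0.35 to 0.15, rescaled Aco1 -0.10 to 0.014 and the log2 Tfrc to Slc40a1 ratio -0.067 to 1.22; in NAM-treated against obese, Slc40a1 -0.54 to 0.11, rescaled Hmox1 -0.22 to 0.11 and the log2 Aco1 to Ireb2 ratio -0.14 to 0.081; in NAM-treated against lean, Ireb2 -0.076 to 0.077, rescaled Ireb2 -0.12 to 0.030 and rescaled Fth1 -0.010 to 0.065.

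Same-numbered samples of different groups correlated by -0.05 to 0.07 in their deviations from the group means, so the replicate numbers were not taken to pair the samples. With the replicate number as a block, Tfrc in NAM-treated against obese was called as deposited (0.52, adjusted p = 0.0485). Rescaled with the block, 29 genes and 0 members were called in NAM-treated against obese, with Ftl1 at -0.73 (adjusted p = 0.0616). The block changed no other member's call.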

Other observations

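Hamp, the transcript of the iron hormone hepcidin, was uneven within every group. It stood at 15.4, 3.34, 3.82 and 0.591 TPM in lean samples, 19.1, 6.58, 2.25 and 20.7 TPM in obese samples, and 71.2, 6.24, 5.42 and 3.19 TPM in NAM-treated samples. The high NAM-treated sample was sample 1, which also had the highest level of the atrial marker Myl7, and the 2 high obese samples, 1 and 4, had Myl7 at 30.4 and 99.3 TPM against 2.17 and 5.30 TPM in the other obese samples. Lean sample 1, with Hamp at 15.4 TPM, had the lowest Myl7 of the 12 samples, 0.677 TPM. Hamp did not pass the test in obese against lean (1.08, adjusted p = 0.508) or in NAM-treated against obese (0.10, adjusted p = 0.956) as deposited, and rescaled the differences were 1.29 (adjusted p = 0.592) and -0.19 (adjusted p = 0.952). Hamp was chosen for this paragraph after its values were seen.

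For the 3 members called in any comparison, the genes with the most similar pattern were found from the mean absolute difference of standardised rescaled values over the 12 samples, where the median gene differed by 1.10 to 1.11 SD. Ftl1 was nearest to Rps10 (0.220 SD), Rplp1 (0.226 SD) and AC117869.1 (0.261 SD). Aco1 was nearest to Spata6l (0.282 SD), Mef2c (0.319 SD) and Rwdd4 (0.321 SD). Ireb2 was nearest to Rfesd (0.332 SD), Foxn3 (0.372 SD) and Lpgat1 (0.385 SD).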
